A study of Mus musculus with 20 samples.

Results

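This account covers 31 mouse genes of cholesterol synthesis, uptake and efflux, taken by symbol from a deposited expression table of 54532 genes. All 31 were found, and all 31 reached 1 FPKM in at least 2 of the 20 libraries, as did 13162 genes in all. FPKM is fragments per kilobase of exon, scaled by library, and how this table was scaled was not given. They fall into 5 steps: 8 genes from acetyl-CoA to the isoprenoids (the mevalonate step), 3 of the squalene step, 9 of the late sterol step, 6 of SREBP2 control and uptake, and 5 of LXR-driven efflux and esterification. The RNA came from C57BL/6 mice. Hep-Org are hepatocyte organoids grown in Matrigel through passages (2 libraries). The undamaged group (2 libraries) had no surgery, and partial hepatectomy (PHx) removed 70% of the liver, with samples at 6, 12, 24, 48 and 72 h and 7, 14 and 21 d (2 libraries each). The growth text calls the liver samples freshly isolated hepatocytes. The cell type field says primary hepatocyte for the first submission and is empty for the second, which holds replicate 2 of every PHx time. Age, sex, pooling and whether replicates were separate animals or cultures were not stated, so the p-values below speak for the spread between these libraries, which may be technical. No sham operation is among the groups, so surgery and loss of tissue cannot be told apart.

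Cholesterol is built from acetyl-CoA through mevalonate and isoprenoids to squalene, which is closed into lanosterol and trimmed to cholesterol by a chain of late enzymes. When sterol in the endoplasmic reticulum is low, SCAP carries the transcription factor SREBP2 to the Golgi, where it is cut and freed to switch on most genes of the pathway and of lipoprotein uptake. When sterol is plentiful, INSIG proteins hold SCAP back, and oxysterols acting on the nuclear receptor LXR switch on genes that export sterol. The liver is a main site of this synthesis and the route by which sterol leaves in bile.

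Some libraries stood apart on genes outside the pathway. Recovered depth was 13.7 to 41.4 M reads (M, 1000000) per library, and mitochondrial transcripts took 40.7% of the reads in 6 h replicate 2 and 3.17% to 25.1% elsewhere. The 6 libraries of 48 h, 72 h and 7 d had Xist, an X-inactivation RNA, at 13.6 to 23.7 FPKM and the Y-linked Ddx3y at 0, and the other 12 liver libraries had Xist at 0.137 FPKM at most and Ddx3y at 9.66 or more. In these data sex and those 3 times cannot be told apart. The acute-phase transcript Saa1 was at 19.9 FPKM in undamaged replicate 1 and 20927 FPKM in undamaged replicate 2, so the 2 undamaged libraries were not alike. The 6 h libraries were therefore also set against the 4 libraries of 14 and 21 d.

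At 6 h after PHx most synthesis genes were low, and no efflux gene was called against undamaged liver. Of the 31 genes, 20 fell and 0 rose against undamaged liver (limma, adjusted p under 0.05 and at least 1 on log2), where 13.3% of all genes tested passed and 7.98% passed as lower. By step, 7 of 8 mevalonate genes, 3 of 3 squalene genes, 7 of 9 late sterol genes and 3 of 6 control and uptake genes fell, while 0 of 5 efflux and esterification genes passed. The median log2 difference was -2.16, -3.44, -2.68, -1.24 and 0.07 in these 5 steps, and 0.01 over all genes tested. The 11 that did not pass were Ggps1, Lbr, Hsd17b7, Scap, Insig2, Mylip, Abca1, Abcg1, Abcg5, Abcg8 and Soat2. Against 14 and 21 d, 18 fell and 1 rose, where 16.8% of all genes passed, 8.12% as lower and 8.66% as higher. After rescaling every library to the same sum, 15 fell and 0 rose against undamaged liver, where 3.3% of all genes passed as lower and 2.01% as higher. Against 14 and 21 d, 22 fell and 0 rose after rescaling, where 15.1% of all genes passed as lower and 3.53% as higher. With no filter on low values 16 fell against undamaged liver and 15 against 14 and 21 d. Without 6 h replicate 1, the count against undamaged liver was 12. In FPKM, 19 of the 20 genes that were under 50% of their 14 and 21 d mean at 6 h were lower in replicate 1 than in replicate 2. Within the first submission 24 of 31 genes were lower at 6 h than at 14 and 21 d (median log2 -1.91). Within the second 27 of 31 were (median -1.29), with a median of 0 over all genes in each. The share of all genes lower at 6 h was not counted within a submission.

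**Figure D1:**
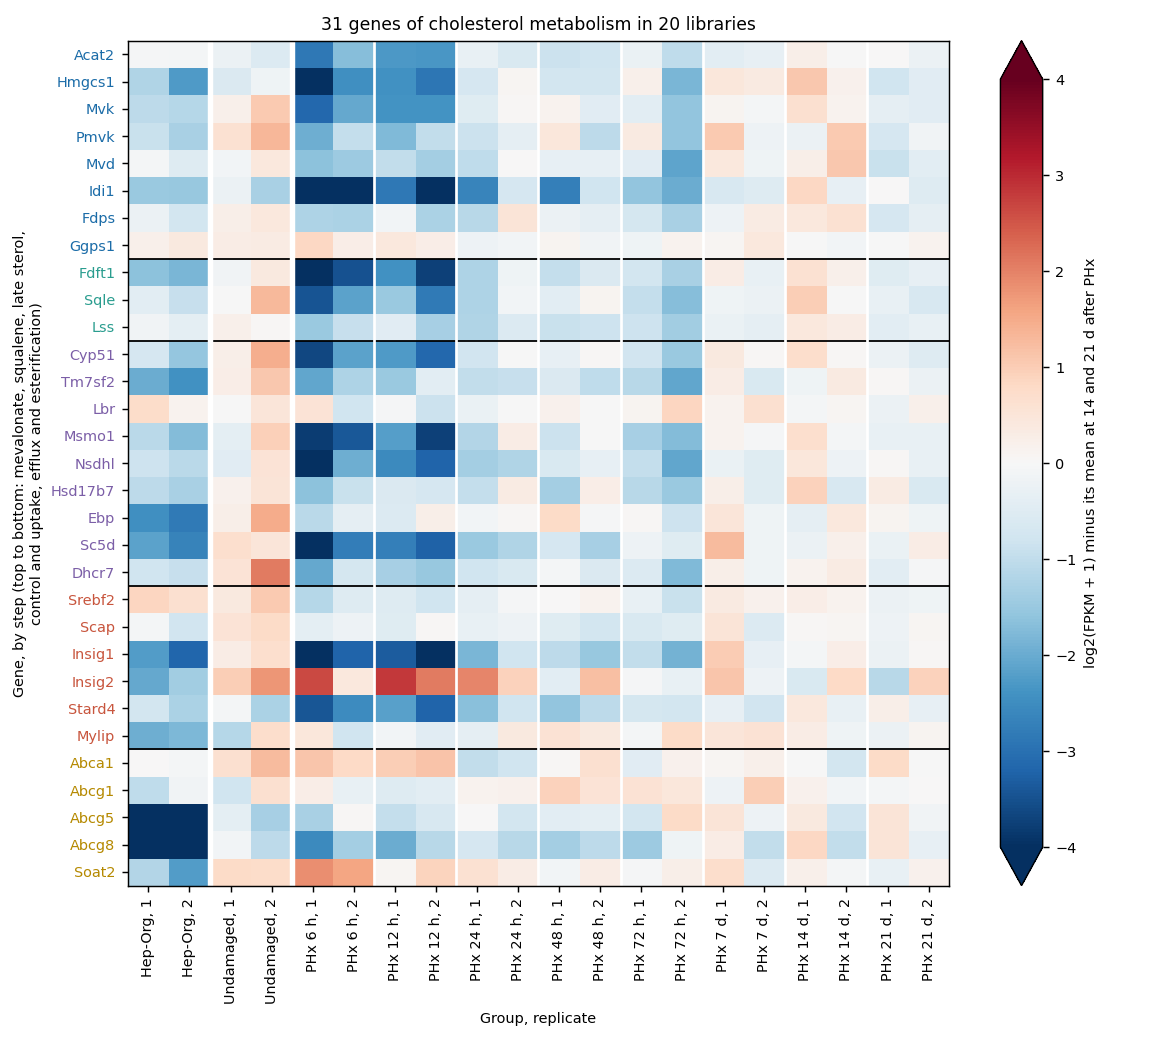
Each square is 1 gene (rows, by step) in 1 library (columns; group and replicate number), coloured by log2(FPKM + 1) minus the mean of the 4 libraries of 14 and 21 d. The 4 libraries of 6 and 12 h are blue, to differing depths, for most synthesis genes, and Abcg5 and Abcg8 are dark blue in the 2 Hep-Org libraries.

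Other cell types moved too. The summed level of 8 hepatocyte markers was 25938 to 51245 FPKM at 6 h against 77744 to 84455 in undamaged liver, and 1 of the 8, Cps1, fell. The 6 erythroid markers summed to 581 to 7089 FPKM at 6 h against 32.1 to 39.1 in undamaged liver, and 4 of the 5 tested rose. The 6 neutrophil markers summed to 114 to 833 FPKM at 6 h against 0.639 to 121, and 2 of 6 rose. The 6 cholangiocyte markers summed to 19.9 to 70.4 FPKM against 8.06 to 335, with 1 of 5 tested higher. Of the markers in these 4 lists, Slc4a1 was at 0 in both undamaged libraries and Cftr in both 6 h libraries, and the others were above 0 in at least 1 library of each group. Kupffer markers summed to 136 to 258 FPKM at 6 h against 41.0 to 1057, with 0 of 10 called, and endothelial markers to 57.6 to 169 against 18.1 to 126, with 0 of 8 called. Stellate markers summed to 28.1 to 35.2 FPKM against 4.11 to 18.8, with 3 of 8 higher, and lymphocyte markers to 3.62 to 14.4 against 0.252 to 2.11, with 1 of 3 tested higher. The part of these shifts in the fall of the cholesterol genes was not tested. In bulk RNA, fewer hepatocytes and less of a transcript per hepatocyte cannot be told apart.

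**Figure D2:**
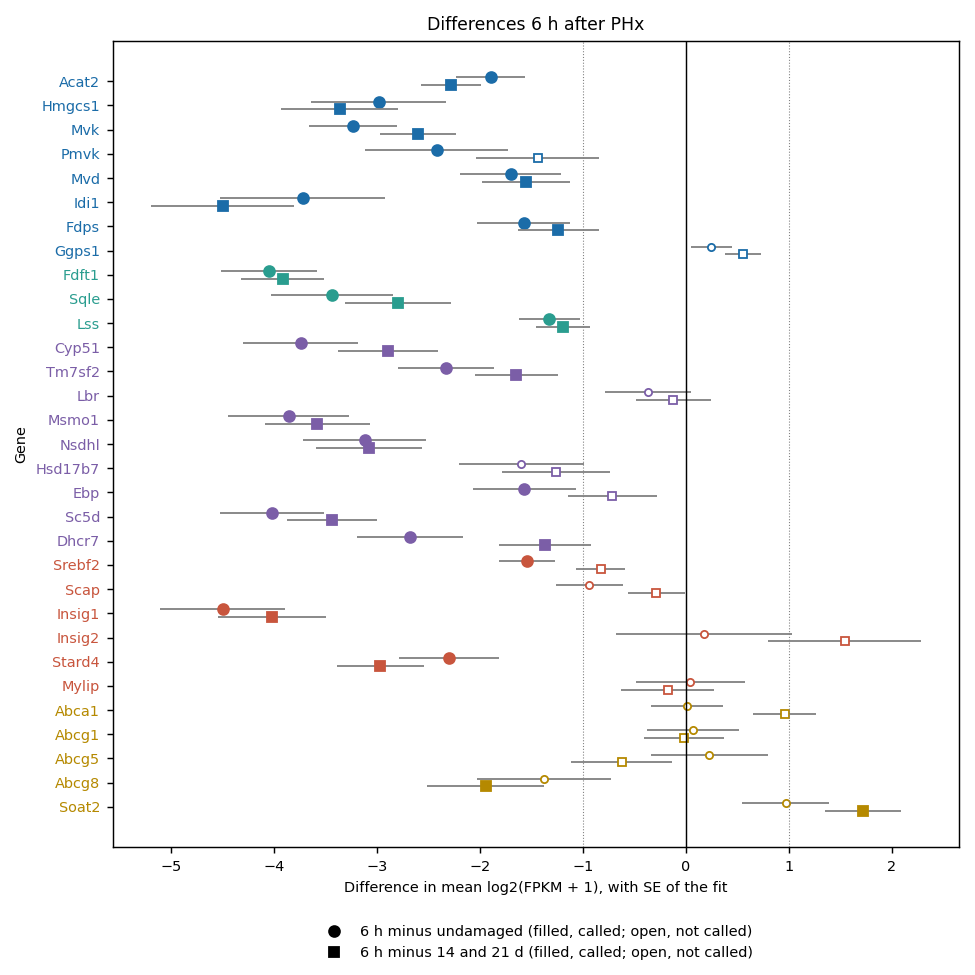
Difference in mean log2(FPKM + 1) at 6 h for each gene (rows, coloured by step), with the SE of the fit, against undamaged liver (circles) and against 14 and 21 d (squares); filled marks passed the test. Idi1, Fdft1, Msmo1, Sc5d and Insig1 lie between -4.50 and -3.44 in both comparisons, and Soat2 is the only filled mark on the right.

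Promoter windows of 300 bases (250 before to 50 after the start, RefSeq, build GRCm38.p6) were searched on both strands. Of the 31 genes 25 had one, and Abcg1, Fdft1, Fdps, Soat2, Sqle and Stard4 had none. The CCAAT box, bound by NF-Y, a partner of SREBP factors, was in 22 of the 25 windows (88%) and in 41.1% of windows over 27025 genes. The E-box CACGTG was in 6 of 25 (24%) and 8.09%, and a sterol regulatory element core, TCACNCCAC, was in 1 of 25 (4%) and 1.44%. None of these motifs lies within another as spelled. Among the 22 windows with a CCAAT box were those of Ggps1, Lbr, Hsd17b7, Insig2, Mylip, Abcg5 and Abcg8, which did not pass at 6 h against undamaged liver. The windows without it were those of Acat2, which fell, and of Scap and Abca1, which did not pass. The box was thus not confined to genes that fell. A match describes letters, not binding. Hmgcs1 is shown as the only window with that core, Insig1 and Msmo1 as genes with large 6 h falls, and Abcg5 as an efflux gene that did not fall in liver. Capitals mark matches to any of the 3 motifs on either strand, so that ATTGG is a CCAAT box read from the other strand.
Hmgcs1: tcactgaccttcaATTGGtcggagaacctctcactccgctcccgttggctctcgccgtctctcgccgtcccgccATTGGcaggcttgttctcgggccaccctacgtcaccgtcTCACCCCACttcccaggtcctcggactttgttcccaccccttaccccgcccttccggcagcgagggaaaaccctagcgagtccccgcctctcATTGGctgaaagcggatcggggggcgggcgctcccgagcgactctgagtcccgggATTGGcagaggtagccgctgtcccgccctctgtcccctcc
Insig1: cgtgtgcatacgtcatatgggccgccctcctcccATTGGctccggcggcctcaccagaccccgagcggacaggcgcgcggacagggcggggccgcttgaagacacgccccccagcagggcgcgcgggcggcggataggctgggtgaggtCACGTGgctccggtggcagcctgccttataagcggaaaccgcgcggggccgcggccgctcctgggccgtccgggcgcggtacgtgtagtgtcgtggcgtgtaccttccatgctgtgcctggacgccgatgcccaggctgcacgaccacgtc
Msmo1: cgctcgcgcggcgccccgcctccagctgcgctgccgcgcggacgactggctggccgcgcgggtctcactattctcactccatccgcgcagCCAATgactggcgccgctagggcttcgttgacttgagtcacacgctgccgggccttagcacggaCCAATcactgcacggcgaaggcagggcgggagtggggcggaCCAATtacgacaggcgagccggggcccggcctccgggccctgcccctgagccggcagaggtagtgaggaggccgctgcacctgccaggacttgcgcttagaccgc
Abcg5: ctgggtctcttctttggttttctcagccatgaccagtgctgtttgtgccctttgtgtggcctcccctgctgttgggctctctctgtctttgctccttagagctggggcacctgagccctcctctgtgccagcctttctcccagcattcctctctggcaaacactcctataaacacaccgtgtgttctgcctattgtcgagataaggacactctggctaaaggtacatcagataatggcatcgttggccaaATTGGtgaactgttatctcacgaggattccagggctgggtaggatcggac
These windows lie at chr13:119690101-119690400 (plus strand), chr5:28071162-28071461 (plus strand), chr8:64733529-64733828 (minus strand) and chr17:84682962-84683261 (minus strand) on GRCm38. Hmgcs1 holds 4 CCAAT boxes beside the sterol element, Msmo1 holds 3, Insig1 holds 1 with an E-box, and Abcg5 holds 1. In the GENCODE annotation Abcg8 starts at chr17:84676302, inside Abcg5 (chr17:84658234-84683011) on the opposite strand. By their RefSeq starts the Abcg5 and Abcg8 genes begin next to each other, and their windows overlap by 209 bases. The CCAAT box of Abcg5 lies in those shared bases, so the same box is counted in both windows.

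Mevalonate step. Acat2, the cytosolic thiolase that joins acetyl-CoA units, opens the route. Acat2 was at 21.9 and 17.4 FPKM in undamaged liver, 2.66 and 7.28 FPKM at 6 h, 4.51 and 4.32 FPKM at 12 h and 20.8 and 16.6 FPKM at 24 h. Acat2 was then at 13.7 and 14.3 FPKM at 48 h, 21.2 and 12.2 at 72 h, 18.9 and 20.6 at 7 d, 30.7 and 25.5 at 14 d and 26.2 and 21.7 at 21 d. The 4 libraries of 6 and 12 h were below every other library. The 6 h difference from undamaged liver was log2 -1.90, SE 0.34, limma adjusted p = 0.00303. Reads of Acat2 may be shared with its near-identical neighbour Acat3, so its level is uncertain.

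Hmgcs1, the cytosolic HMG-CoA synthase, condenses the next acetyl unit. Hmgcs1 was at 52.1 and 67.9 FPKM in undamaged liver, 3.05 and 13.4 FPKM at 6 h, 13.5 and 9.6 FPKM at 12 h and 48.6 and 80.9 FPKM at 24 h. Hmgcs1 was then at 46.1 and 45.7 FPKM at 48 h, 88.6 and 21.3 at 72 h, 107 and 99.8 at 7 d, 163 and 87.9 at 14 d and 43.9 and 56.6 at 21 d. The libraries of 6 and 12 h lay below all others in liver, and at 72 h the replicates were far apart. At 6 h the difference was log2 -2.99, SE 0.66, limma adjusted p = 0.00883 against undamaged liver and log2 -3.36, SE 0.57, limma adjusted p = 0.0012 against 14 and 21 d. Without 6 h replicate 1 the first was -2.07, which did not pass.

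Mvk, mevalonate kinase, adds the first phosphate. Mvk was at 13.9 and 25.7 FPKM in undamaged liver, 0.441 and 2.09 FPKM at 6 h, 1.45 and 1.45 FPKM at 12 h and 8.08 and 12.1 FPKM at 24 h. Mvk was then at 13.2 and 8.28 FPKM at 48 h, 8.58 and 3.26 at 72 h, 12.7 and 11.1 at 7 d, 19 and 13.2 at 14 d and 9.03 and 8.38 at 21 d. It did not overlap with any other time at 6 and 12 h, with log2 -3.24, SE 0.43, limma adjusted p = 0.00061 at 6 h against undamaged liver. Idi1, the isomerase that makes the starter isoprenoid, had the lowest 6 h level of the 31 genes relative to its 14 and 21 d mean in FPKM. Idi1 was at 33.1 and 15.4 FPKM in undamaged liver, 0.63 and 0.97 FPKM at 6 h, 4.57 and 0.11 FPKM at 12 h and 5.5 and 24.3 FPKM at 24 h. Idi1 was then at 5.03 and 22.5 FPKM at 48 h, 12.5 and 9.28 at 72 h, 25.2 and 27.5 at 7 d, 71.3 and 31.2 at 14 d and 40.2 and 27.2 at 21 d. The 6 h mean was 1.88% of the 14 and 21 d mean, and the replicates disagreed at 24 h and 48 h, where replicate 1 stayed low. The 6 h difference was log2 -3.72, SE 0.80, limma adjusted p = 0.00796 against undamaged liver and log2 -4.50, SE 0.69, limma adjusted p = 0.000687 against 14 and 21 d. Without undamaged replicate 1 the first was -3.20, which did not pass.

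The other 4 mevalonate genes are given by their means. Pmvk, which adds the second phosphate, averaged 7.18 ± 3.88 FPKM at 6 h against 41.6 ± 14.9 in undamaged liver (SD, n = 2 each), with log2 -2.42, SE 0.69, limma adjusted p = 0.0285. Mvd, the decarboxylase, averaged 3.97 ± 0.415 FPKM at 6 h against 15.4 ± 4.32, with log2 -1.70, SE 0.49, limma adjusted p = 0.0296. Pmvk did not pass against 14 and 21 d, with log2 -1.44, SE 0.60, limma adjusted p = 0.0898. Fdps, farnesyl diphosphate synthase, was at 0.171 ± 0.0164 FPKM at 6 h against 2.5 ± 0.324, with log2 -1.58, SE 0.45, limma adjusted p = 0.0286. Its level is uncertain, because it has near-identical copies in the genome and rested on as few as 11 reads. Ggps1, which turns the farnesyl product into geranylgeranyl chains for protein tails, averaged 2.81 ± 1.01 FPKM at 6 h against 2.15 ± 0.065 in undamaged liver, and its libraries overlapped. It did not pass at 6 h (log2 0.25, SE 0.20, limma adjusted p = 0.429). Of 28 alternatives 5 ended the 6 h call against undamaged liver for Pmvk, 7 for Mvd and 8 for Fdps, among them, for all 3, no filter and leaving out 6 h replicate 1 or either undamaged library, and with voom Fdps was at -3.80. Across the 8 times 4 of these 8 genes differed by the moderated F test, namely Acat2, Hmgcs1, Mvk and Idi1.

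**Figure D3:**
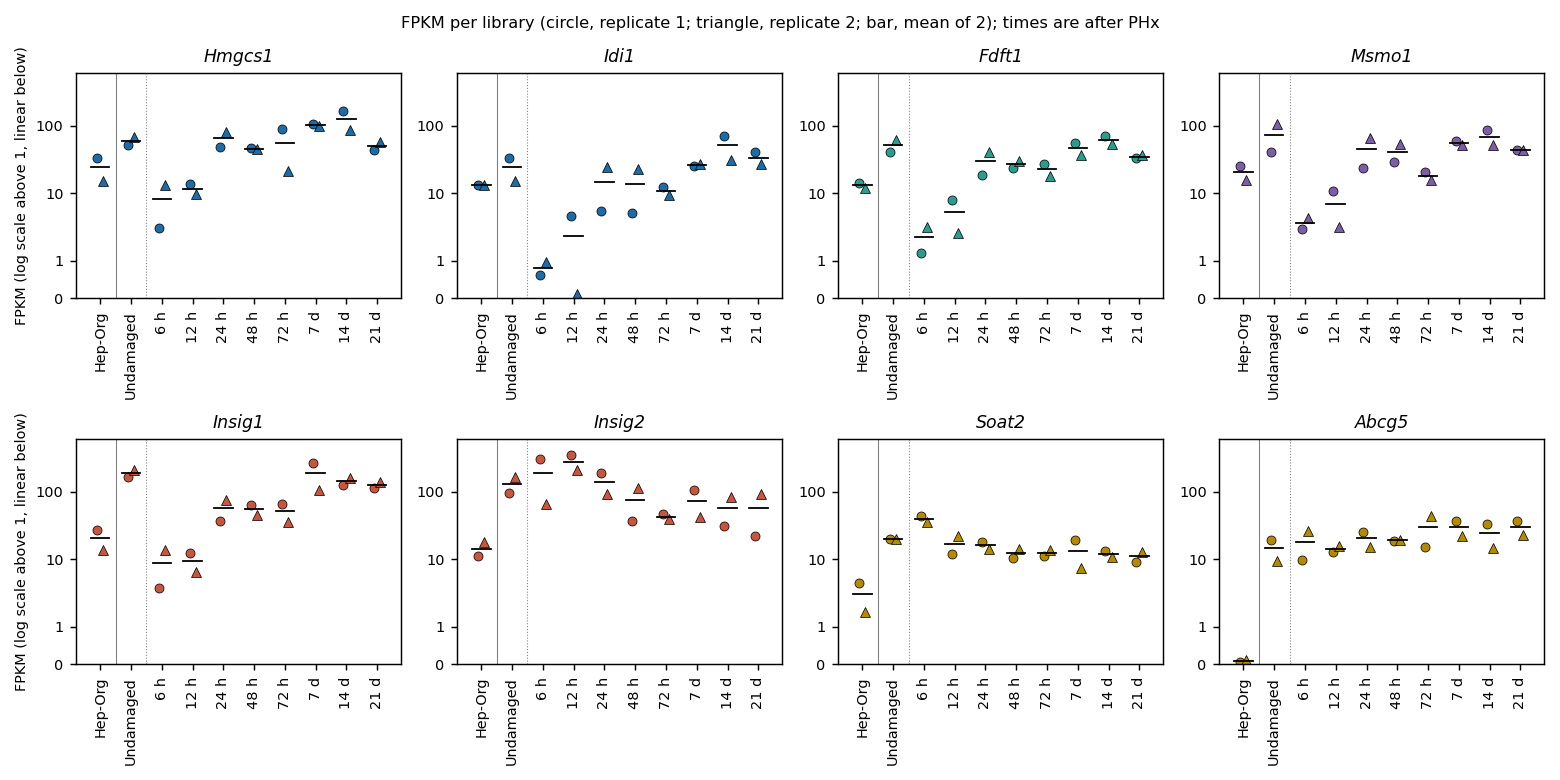
FPKM of 8 of the genes in each library (circle, replicate 1; triangle, replicate 2; bar, mean of 2), from Hep-Org through undamaged liver to 21 d after PHx, on an axis that is logarithmic above 1. Hmgcs1, Idi1, Fdft1, Msmo1 and Insig1 have their lowest liver values at 6 or 12 h, Insig2 and Soat2 have their highest means there, and Abcg5 is near 0 in Hep-Org.

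Squalene step. Fdft1, squalene synthase, commits farnesyl units to sterol. Fdft1 was at 41.5 and 61.3 FPKM in undamaged liver, 1.32 and 3.17 FPKM at 6 h, 7.83 and 2.56 FPKM at 12 h and 18.8 and 40.8 FPKM at 24 h. Fdft1 was then at 23.4 and 30.3 FPKM at 48 h, 27 and 18.2 at 72 h, 56.2 and 36.9 at 7 d, 70 and 52.9 at 14 d and 32.9 and 36.6 at 21 d. The groups at 6 and 12 h did not overlap with any other liver group. Fdft1 had the largest F of the 31 genes over the PHx times (F = 21.0, limma adjusted p = 0.0006), and its 6 h difference was log2 -3.92, SE 0.40, limma adjusted p = 7.50e-05 against 14 and 21 d. At 24 h it was above 6 h by log2 3.21, SE 0.47, limma adjusted p = 0.00157.

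Sqle, squalene epoxidase, is a rate-limiting oxygen-using enzyme. Sqle was at 22.5 and 57.2 FPKM in undamaged liver, 1.17 and 4.36 FPKM at 6 h, 7.52 and 2.36 FPKM at 12 h and 9.15 and 20.9 FPKM at 24 h. Sqle was then at 16.8 and 24.3 FPKM at 48 h, 11.1 and 6.35 at 72 h, 20.2 and 19.3 at 7 d, 45.5 and 22.2 at 14 d and 18.3 and 14.2 at 21 d. Undamaged replicate 2 was the highest library, and 72 h replicate 2 lay within the range of 6 and 12 h. The 6 h difference was log2 -3.44, SE 0.59, limma adjusted p = 0.00275 against undamaged liver. Lss, lanosterol synthase, closes the ring. Lss was at 8.15 and 7.29 FPKM in undamaged liver, 1.85 and 3.23 FPKM at 6 h, 4.76 and 2.17 FPKM at 12 h and 2.42 and 4.39 FPKM at 24 h. Lss was then at 3.31 and 3.52 FPKM at 48 h, 3.44 and 2.06 at 72 h, 5.55 and 5.23 at 7 d, 9.7 and 8.77 at 14 d and 4.91 and 5.47 at 21 d. Its 6 h difference was log2 -1.33, SE 0.30, limma adjusted p = 0.00972, a call that 3 of 28 alternatives ended, and at 24 h its replicates overlapped with those of 6 h (log2 0.31, SE 0.30, limma adjusted p = 0.53). All 3 squalene genes differed over the 8 PHx times (F from 6.01 to 21.0).

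Late sterol step. Cyp51 removes a methyl group from lanosterol. Cyp51 was at 74.3 and 173 FPKM in undamaged liver, 4.07 and 13.5 FPKM at 6 h, 12.3 and 6.26 FPKM at 12 h and 36.2 and 61.4 FPKM at 24 h. Cyp51 was then at 49.6 and 65.5 FPKM at 48 h, 36.7 and 21.9 at 72 h, 83.3 and 65.3 at 7 d, 102 and 64.8 at 14 d and 53.6 and 43.5 at 21 d. Undamaged replicate 2 was well above replicate 1, and all 4 libraries of 6 and 12 h were below the other liver libraries. The 6 h difference was log2 -3.74, SE 0.56, limma adjusted p = 0.00124 against undamaged liver and log2 -2.90, SE 0.48, limma adjusted p = 0.0011 against 14 and 21 d.

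Msmo1, the methylsterol oxidase, and Nsdhl, the dehydrogenase that follows it, take off the methyl pair that remains. Msmo1 was at 41 and 105 FPKM in undamaged liver, 3.0 and 4.29 FPKM at 6 h, 10.9 and 3.17 FPKM at 12 h and 23.7 and 66.3 FPKM at 24 h. Msmo1 was then at 29.4 and 53.2 FPKM at 48 h, 20.7 and 15.5 at 72 h, 59.4 and 52.4 at 7 d, 86.6 and 51.5 at 14 d and 43.7 and 44 at 21 d. For Msmo1 the 6 and 12 h libraries lay below all other liver libraries. Nsdhl was at 27.7 and 56.2 FPKM in undamaged liver, 1.13 and 9.2 FPKM at 6 h, 5.77 and 3.27 FPKM at 12 h and 14.3 and 16.1 FPKM at 24 h. Nsdhl was then at 25.1 and 30.1 FPKM at 48 h, 19.5 and 8.28 at 72 h, 31.5 and 27.1 at 7 d, 53.2 and 33.2 at 14 d and 39.6 and 31.2 at 21 d. Nsdhl at 6 h replicate 2 lay just above 72 h replicate 2, so those 2 times overlapped. The 6 h difference from undamaged liver was log2 -3.86, SE 0.59, limma adjusted p = 0.00141 for Msmo1 and log2 -3.12, SE 0.60, limma adjusted p = 0.00448 for Nsdhl. From 6 to 24 h Msmo1 rose (log2 3.15, SE 0.59, limma adjusted p = 0.00563), and Nsdhl did not pass (log2 1.79, SE 0.60, limma adjusted p = 0.0614).

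Sc5d, the desaturase near the end of the chain, acts just before the last reductions. Sc5d was at 168 and 148 FPKM in undamaged liver, 5.08 and 14.8 FPKM at 6 h, 15.1 and 10.2 FPKM at 12 h and 37.3 and 45.4 FPKM at 24 h. Sc5d was then at 66.4 and 41.8 FPKM at 48 h, 92.2 and 75.8 at 72 h, 256 and 93.1 at 7 d, 88.7 and 122 at 14 d and 88.2 and 129 at 21 d. The means stepped up at each time from 6 h to 7 d, and the libraries of 6 and 12 h did not overlap with any later time. Its 6 h difference was log2 -4.02, SE 0.51, limma adjusted p = 0.000514 against undamaged liver. At 24 h it was above 6 h (log2 2.11, SE 0.51, limma adjusted p = 0.017).

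Tm7sf2 and Lbr encode reductases that act on the same sterol double bond, and Lbr is also the lamin B receptor of the nuclear envelope. Tm7sf2 averaged 7.65 ± 3.43 FPKM at 6 h against 42.4 ± 17.1 in undamaged liver, with log2 -2.33, SE 0.47, limma adjusted p = 0.00573. Lbr averaged 2.56 ± 2.2 FPKM at 6 h against 3.21 ± 1.03, and its libraries overlapped (log2 -0.37, SE 0.42, limma adjusted p = 0.581). The FPKM ratio of Tm7sf2 to Lbr was 1.27 and 9.96 in the 6 h libraries and 12.2 and 13.8 in undamaged liver, so the replicates at 6 h did not agree on it. Hsd17b7, the ketoreductase of the methyl-removing steps, did not pass (log2 -1.60, SE 0.61, limma adjusted p = 0.0836). Ebp, the sterol isomerase, fell (log2 -1.57, SE 0.50, limma adjusted p = 0.0439), a call that 12 of 28 alternatives ended, and against 14 and 21 d it did not pass (log2 -0.71, SE 0.43, limma adjusted p = 0.238). Dhcr7, the last reductase, fell against undamaged liver (log2 -2.68, SE 0.52, limma adjusted p = 0.00457), where the 2 undamaged libraries were at 24.7 and 74.1 FPKM, and against 14 and 21 d (log2 -1.37, SE 0.45, limma adjusted p = 0.0356). The second call was ended by 6 of 28 alternatives, and without 6 h replicate 1 it was -0.70. Of the 9 late genes 4 differed over the PHx times, namely Cyp51, Msmo1, Nsdhl and Sc5d.

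Control and uptake. Srebf2 encodes SREBP2 itself. Srebf2 was at 10.7 and 17.3 FPKM in undamaged liver, 3.05 and 5.22 FPKM at 6 h, 5.27 and 4.16 FPKM at 12 h and 5.96 and 7.59 FPKM at 24 h. Srebf2 was then at 7.94 and 8.72 FPKM at 48 h, 6.2 and 3.77 at 72 h, 10.4 and 8.98 at 7 d, 9.71 and 8.81 at 14 d and 6.64 and 6.87 at 21 d. Both 6 h libraries were below both undamaged libraries, by log2 -1.55, SE 0.27, limma adjusted p = 0.00294. Against 14 and 21 d the difference was log2 -0.83, SE 0.24, limma adjusted p = 0.02, under the 1 log2 unit required. Scap, its escort, averaged 9.28 ± 0.88 FPKM at 6 h against 18.7 ± 2.08 and did not pass (log2 -0.94, SE 0.32, limma adjusted p = 0.0593).

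Insig1, a SREBP2 target and anchor of SCAP, had the largest fall of the 31 genes against undamaged liver on the log2(FPKM + 1) scale. Insig1 was at 163 and 212 FPKM in undamaged liver, 3.68 and 13.6 FPKM at 6 h, 12.3 and 6.41 FPKM at 12 h and 36.7 and 76.6 FPKM at 24 h. Insig1 was then at 63.5 and 45.4 FPKM at 48 h, 66.8 and 35.2 at 72 h, 269 and 105 at 7 d, 126 and 160.5 at 14 d and 113 and 138 at 21 d. The 6 and 12 h libraries were far below the rest and the 24 to 72 h libraries lay between. The 6 h difference was log2 -4.50, SE 0.61, limma adjusted p = 0.000714, and 24 h was above 6 h by log2 2.71, SE 0.61, limma adjusted p = 0.0127.

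Insig2 encodes the second anchor, which in mouse liver has a transcript that is raised by fasting. Insig2 was at 96.2 and 166 FPKM in undamaged liver, 309 and 65.6 FPKM at 6 h, 347 and 209 FPKM at 12 h and 189.6 and 93.3 FPKM at 24 h. Insig2 was then at 36.2 and 112 FPKM at 48 h, 46.5 and 39 at 72 h, 105 and 42.2 at 7 d, 31.5 and 84.5 at 14 d and 21.7 and 93.3 at 21 d. Its highest liver values were in 6 h replicate 1 and in both 12 h libraries, while 6 h replicate 2 was below both undamaged libraries. It did not pass at 6 h (log2 0.17, SE 0.86, limma adjusted p = 0.922) or at 12 h (log2 1.09, SE 0.86, limma adjusted p = 0.506), nor over the 8 times (F = 2.42, limma adjusted p = 0.217). The FPKM ratio of Insig2 to Insig1 was 83.8 and 4.82 at 6 h, 28.3 and 32.6 at 12 h, and 5.17 and 1.22 at 24 h. It was 0.589 and 0.780 in undamaged liver and 0.192 to 0.678 at 14 and 21 d, so every 6 h, 12 h and 24 h library lay above all of those. The ratio was 0.570 and 2.47 at 48 h, 0.697 and 1.11 at 72 h and 0.392 and 0.402 at 7 d, so replicate 2 of 48 h and of 72 h lay above them too.

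Stard4 carries sterol between membranes. Stard4 was at 19.1 and 7.73 FPKM in undamaged liver, 0.946 and 2.7 FPKM at 6 h, 3.64 and 1.31 FPKM at 12 h and 5.59 and 11 FPKM at 24 h. Stard4 was then at 6.07 and 9.2 FPKM at 48 h, 11.9 and 11.5 at 72 h, 15.7 and 11.3 at 7 d, 26.9 and 16 at 14 d and 23.8 and 15.6 at 21 d. The 6 and 12 h libraries were below every other liver library, with log2 -2.97, SE 0.42, limma adjusted p = 0.00045 at 6 h against 14 and 21 d. Mylip, a ubiquitin ligase induced by LXR that sends the LDL receptor for destruction, was low. Mylip was at 0.815 and 5.54 FPKM in undamaged liver, 4.49 and 1.29 FPKM at 6 h, 2.74 and 1.94 FPKM at 12 h and 2.11 and 4.25 FPKM at 24 h. Mylip was then at 5.03 and 4.29 FPKM at 48 h, 2.81 and 5.86 at 72 h, 4.66 and 5.0 at 7 d, 3.89 and 2.59 at 14 d and 2.39 and 3.37 at 21 d. The undamaged libraries spanned nearly the whole liver range, and Mylip did not pass at 6 h (log2 0.04, SE 0.53, limma adjusted p = 0.973) or over time (F = 0.682, limma adjusted p = 0.792).

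Efflux and esterification. Abca1 loads cholesterol onto apolipoprotein A-I and is a classic LXR target. Abca1 was at 24.9 and 38.4 FPKM in undamaged liver, 34.6 and 27.9 FPKM at 6 h, 31.8 and 35.8 FPKM at 12 h and 7.41 and 8.6 FPKM at 24 h. Abca1 was then at 16.2 and 24.5 FPKM at 48 h, 11.1 and 17.7 at 72 h, 16.3 and 18 at 7 d, 15.5 and 8.89 at 14 d and 27 and 15.3 at 21 d. The 24 h libraries were below all other liver libraries, and those of 6 and 12 h all lay between the 2 undamaged libraries. Abca1 was the only one of the 31 genes that fell from 6 to 24 h (log2 -1.83, SE 0.35, limma adjusted p = 0.00608), and it differed over the PHx times (F = 7.00, limma adjusted p = 0.0177). After rescaling to the same sum the fall of -1.60 did not pass. Abcg1, which passes sterol to lipoproteins, was near the limit of the filter. Abcg1 was at 0.504 and 3.05 FPKM in undamaged liver, 2.15 and 1.12 FPKM at 6 h, 0.844 and 0.952 FPKM at 12 h and 1.9 and 1.94 FPKM at 24 h. Abcg1 was then at 4.0 and 2.84 FPKM at 48 h, 2.94 and 2.57 at 72 h, 1.25 and 4.23 at 7 d, 1.93 and 1.45 at 14 d and 1.5 and 1.64 at 21 d. Undamaged replicate 1 was the lowest liver library while replicate 2 was in the upper part of the range, and Abcg1 did not pass over time (F = 1.42, limma adjusted p = 0.464).

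Abcg5 and Abcg8 work as a pair that pumps sterol into bile. Abcg8 was at 15.2 and 7.48 FPKM in undamaged liver, 2.0 and 5.81 FPKM at 6 h, 3.38 and 7.1 FPKM at 12 h and 9.85 and 7.05 FPKM at 24 h. Abcg8 was then at 5.8 and 7.4 FPKM at 48 h, 5.39 and 14.4 at 72 h, 20.2 and 7.75 at 7 d, 29.6 and 7.73 at 14 d and 24 and 12.8 at 21 d. Both 6 h libraries of Abcg8 were below both undamaged libraries without passing (log2 -1.38, SE 0.65, limma adjusted p = 0.16), and they were lower than at 14 and 21 d (log2 -1.95, SE 0.56, limma adjusted p = 0.0212), a call that 4 of 28 alternatives ended. Abcg5 averaged 18 ± 11.5 FPKM at 6 h against 14.4 ± 6.96 in undamaged liver, with overlapping libraries (log2 0.23, SE 0.57, limma adjusted p = 0.827). The FPKM ratio of Abcg5 to Abcg8 was 4.92 and 4.49 at 6 h and 3.72 and 2.23 at 12 h, against 1.27 in each undamaged library and 1.13 to 1.90 at 14 and 21 d. Both 6 h libraries had the highest ratios of the 20, and no test was run on them. The gene models of the pair overlap on opposite strands and strandedness was not given. Reads within that overlap thus cannot be told apart.

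Soat2 stores sterol as ester in hepatocytes. Soat2 was at 19.9 and 19.8 FPKM in undamaged liver, 44 and 35.9 FPKM at 6 h, 11.9 and 22.1 FPKM at 12 h and 17.8 and 14.2 FPKM at 24 h. Soat2 was then at 10.5 and 14.2 FPKM at 48 h, 11 and 13.5 at 72 h, 19.2 and 7.52 at 7 d, 13.2 and 10.7 at 14 d and 9.16 and 13 at 21 d. The 6 h libraries were the highest 2 of the 20. Soat2 rose against 14 and 21 d (log2 1.72, SE 0.37, limma adjusted p = 0.00435) and did not pass against undamaged liver (log2 0.97, SE 0.42, limma adjusted p = 0.13). After rescaling to the same sum the difference from 14 and 21 d was 1.14, which did not pass.

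Order of recovery. Of the 31 genes, 20 had a 6 h mean under 50% of their mean at 14 and 21 d, as did 2375 of 13162 genes (18.0%). At 12 h only Tm7sf2 and Hsd17b7 were back at 50%, which is 10% of the 20, against 39.3% of the 2375 genes. At 24 h 11 more reached it: Acat2, Hmgcs1, Mvk, Pmvk, Mvd, Fdps, Fdft1, Sqle, Cyp51, Msmo1 and Dhcr7. That made 13 of 20 (65%) that had reached 50% at 12 or 24 h, against 84.0% of the 2375 genes. Tm7sf2, at 52.7% at 12 h, was at 48.7% at 24 h, so 8 of the 20 were under 50% at 24 h. Nsdhl and Sc5d followed at 48 h, Stard4 and Abcg8 at 72 h, and Idi1, Lss and Insig1 at 7 d. Some of these places lay close to the mark. Lss was already at 48.0%, 47.2% and 47.4% at 12, 24 and 48 h. Sc5d was at 50.6% at 48 h (62.1% and 39.0% in the 2 replicates). Abcg8 was at 53.3% at 72 h (29.1% and 77.5%). By step, 6 of 7 mevalonate genes, 2 of 3 squalene genes and 5 of 7 late sterol genes, Tm7sf2 included, had reached 50% by 24 h, against 0 of 2 control genes and 0 of 1 efflux gene. The order rests on few libraries. At 24 h replicate 1 had 14 of the 20 genes under 50% and replicate 2 had 4, and without 24 h replicate 2 the number that had reached 50% by 24 h was 8. With 75% as the mark it was 7 of 23.

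**Figure D4:**
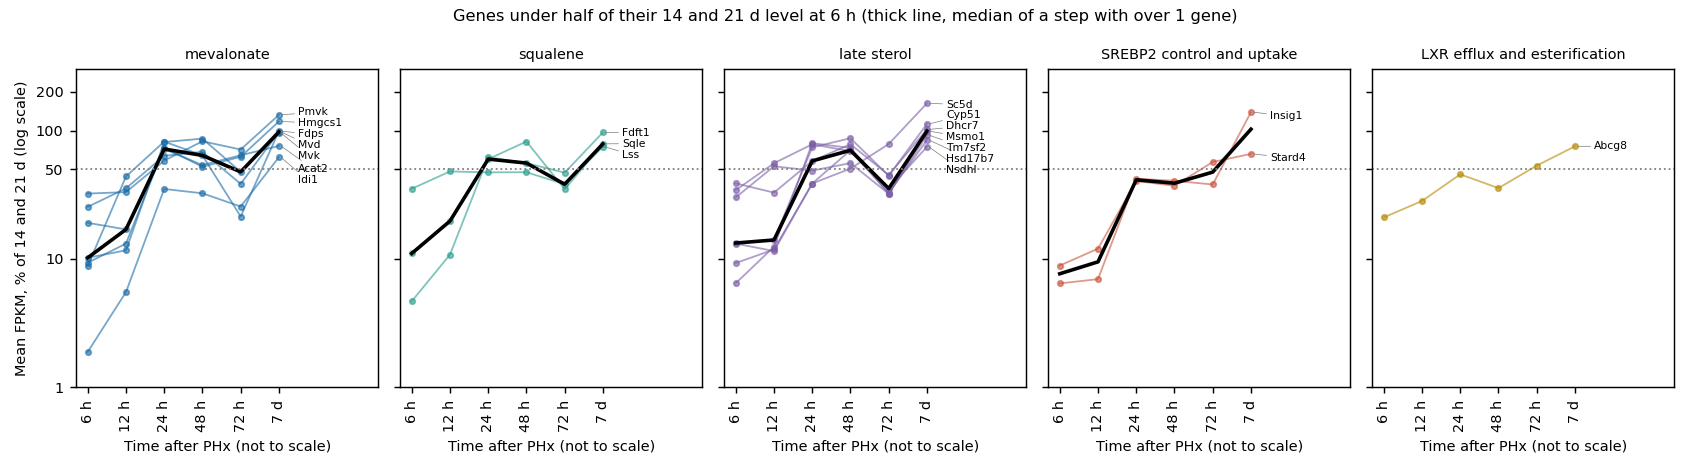
Mean FPKM of the 20 genes that were under 50% of their 14 and 21 d mean at 6 h, as a percentage of that mean (log axis), from 6 h to 7 d, by step; the thick line is the median and the dotted line 50%. Medians are at 7.65% to 13.3% at 6 h in the first 4 steps, 41.3% to 71.8% at 24 h and 78.8% to 102% at 7 d.

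The step medians show the shape. Mevalonate genes were at 10.2%, 17.0%, 71.8%, 64.0%, 47.6% and 97.7% of their 14 and 21 d mean at 6, 12, 24, 48 and 72 h and 7 d. Squalene genes were at 11%, 19.7%, 59.9%, 55.8%, 38.1% and 78.8%, and late sterol genes at 13.3%, 14.0%, 58.0%, 70.2%, 35.3% and 99.0%. Insig1 and Stard4 together had medians of 7.65%, 9.48%, 41.3%, 38.9%, 47.4% and 102%. All 3 enzyme steps thus had a lower median at 72 h than at 48 h. Of the 13 genes that had reached 50% by 24 h, 0 were under 50% at 48 h, 10 at 72 h and 0 at 7 d. The matching shares of the 2375 genes were not counted, so these counts do not set the pathway apart. The 72 h replicates differed, with 10 of the 20 genes under 50% in replicate 1 and 17 in replicate 2, and with 19 of 20 lower in replicate 2.

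Tests at the single times gave fewer calls. At 12 h 13 of 31 genes were below undamaged liver and 0 above (5.56% of all genes passed, 3.85% as lower), 8 without 12 h replicate 2 and 8 after rescaling to the same sum. After that rescaling 0.752% of all genes passed as lower and 0.456% as higher at 12 h. Between 12 h and 6 h, limma called 0 of 31 (0.114% of all genes), with 1 gene at an unadjusted p under 0.05 and 0 by voom. From 6 to 24 h 11 genes rose and 1 fell (10.1% of all genes passed, 4.86% as higher and 5.21% as lower), and without 24 h replicate 2 or without 6 h replicate 1 only 5 passed. Acat2, Mvk, Fdft1 and Msmo1 rose in all 28 alternatives, and the other 7 lost the call in 2 to 6 of them. Those that rose were Acat2, Hmgcs1, Mvk, Idi1, Fdft1, Sqle, Cyp51, Msmo1, Sc5d, Insig1 and Stard4. Within the first submission 24 of 31 genes were higher at 24 h than at 6 h, and within the second 27 were, with 1 library per time in each. The share over all genes was not counted within a submission. In the main fit the median log2 difference from 6 to 24 h was 0.93 over the 31 genes and -0.01 over all genes tested.

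Against undamaged liver limma called 0 of 31 genes at 24 h (0.228% of all genes), 0 at 48 h (0.691%), 0 at 7 d (0.608%) and 0 at 14 and 21 d (0.0532%). The genes at an unadjusted p under 0.05 numbered 13, 7, 2 and 4 at these times, and voom called 0 at each. The median log2 difference was -0.84 at 24 h, -0.66 at 48 h, -0.28 at 7 d and -0.34 at 14 and 21 d, against -0.02, -0.05, -0.04 and -0.02 over all genes tested. At 72 h 5 genes fell, Mvk, Lss, Tm7sf2, Dhcr7 and Srebf2 (3.23% of all genes passed, 2.07% as lower), with a median of -1.24 over the 31. Leaving out either 72 h replicate 2 or undamaged replicate 2 left 0 of these calls, as did no filter on low values and the replicate block with its submission term. With 72 h replicate 1, either Hep-Org library, or any 1 of the 4 libraries of 14 and 21 d left out it was 3, and after rescaling to the same sum 1. After that rescaling 0.228% of all genes passed as lower and 2.64% as higher at 72 h. At 72 h the hepatocyte markers summed to 43113 to 57069 FPKM against 77744 to 84455 in undamaged liver, with 0 of 8 called. Of the stellate markers 4 of 8 rose, and the part of these shifts was not tested. Over the 8 PHx times 14 of 31 genes differed by the F test, where 13.6% of all genes did. The lowest mean on the log2 scale was at 6 h for 19 of the 31 genes and at 12 h for 6, and the highest was at 14 d for 17. Shares over all genes were not counted for these.

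Organoids. In Hep-Org the bile exporters Abcg5 and Abcg8 were close to undetected, and 6 of 9 late sterol genes fell on the deposited scale. Of the 31 genes 16 fell and 0 rose against undamaged liver, where 24.4% of all genes passed and 13.8% passed as lower. Rescaling to the same sum changed this split to 4 lower and 7 higher, where 5.68% of all genes were lower and 58.1% higher, and it moved the median of all genes to 1.34, so the directions below are on the deposited scale, and 25 of 31 lay below that median. The reads that the FPKM scaling assumed were not the reads recovered: recovered over assumed reads was 0.524 and 0.478 in Hep-Org and 1.08 and 1.94 in undamaged liver. Without undamaged replicate 2 the count was 7, and without Hep-Org replicate 2 it was 10. By step 2 of 8 mevalonate, 1 of 3 squalene, 6 of 9 late sterol, 4 of 6 control and 3 of 5 efflux genes fell. Against 14 and 21 d 12 fell and 0 rose (26% of all genes passed, 14.2% as lower), and after rescaling 7 were lower and 5 higher, where 8.4% of all genes were lower and 47.2% higher. The 8 hepatocyte markers summed to 1450 to 5849 FPKM in Hep-Org against 77744 to 84455 in undamaged liver and all 8 fell. The 6 cholangiocyte markers summed to 2729 to 4444 FPKM against 8.06 to 335, and all 5 tested rose. These libraries thus went against the hepatocyte part of their label by these markers, and the part of that in the cholesterol genes was not tested. Kupffer, endothelial, erythroid, neutrophil and lymphocyte markers each summed to at most 3.57 FPKM in Hep-Org, with Vsig4 and Timd4 of the Kupffer list at 0, and stellate markers to 9.92 to 28.0 FPKM. Xist was at 0.00128 and 25.3 FPKM in Hep-Org replicates 1 and 2.

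Abcg5 was at 0.0591 and 0.109 FPKM in Hep-Org, against 19.4 and 9.52 FPKM in undamaged liver. Abcg8 was at 0.0244 and 0.0367 FPKM in Hep-Org, against 15.2 and 7.48 FPKM in undamaged liver. Soat2 was at 4.47 and 1.64 FPKM in Hep-Org, against 19.9 and 19.8 FPKM in undamaged liver. Abcg5 and Abcg8 rested on 7 and 15 and on 4 and 7 reads in Hep-Org, and so were close to undetected. The differences were log2 -3.76, SE 0.57, limma adjusted p = 0.000255 for Abcg5 and log2 -3.51, SE 0.65, limma adjusted p = 0.00112 for Abcg8. For Soat2 it was log2 -2.46, SE 0.42, limma adjusted p = 0.000668, and after rescaling to the same sum -0.83, which did not pass. These 3 hepatocyte export and storage genes did not overlap between Hep-Org and any liver library.

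Ebp was at 14.9 and 11.5 FPKM in Hep-Org, against 103 and 243 FPKM in undamaged liver. Sc5d was at 22.9 and 15.9 FPKM in Hep-Org, against 168 and 148 FPKM in undamaged liver. Tm7sf2 was at 5.66 and 3.81 FPKM in Hep-Org, against 30.3 and 54.5 FPKM in undamaged liver. Each of these late enzymes was lower in both Hep-Org libraries than in either undamaged library. Ebp and Sc5d fell, with log2 -3.50, SE 0.50, limma adjusted p = 0.00016 and log2 -2.98, SE 0.51, limma adjusted p = 0.000594. After rescaling to the same sum Sc5d was at -1.08, which did not pass, and Ebp at -1.61, which did. Tm7sf2 fell too (log2 -2.88, SE 0.47, limma adjusted p = 0.00042), while Lbr did not pass (log2 0.19, SE 0.42, limma adjusted p = 0.764), so the FPKM ratio of the paired reductases was 1.19 and 1.33 in Hep-Org against 12.2 and 13.8 in undamaged liver.

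Insig1 was at 27.4 and 13.7 FPKM in Hep-Org, against 163 and 212 FPKM in undamaged liver. Insig2 was at 11 and 17.7 FPKM in Hep-Org, against 96.2 and 166 FPKM in undamaged liver. Mylip was at 0.0425 and 0.164 FPKM in Hep-Org, against 0.815 and 5.54 FPKM in undamaged liver. For each of the 3, both Hep-Org libraries were below both undamaged libraries. Insig1 and Insig2 fell (log2 -3.19, SE 0.61, limma adjusted p = 0.00135 and log2 -3.08, SE 0.86, limma adjusted p = 0.0139), as did Mylip (log2 -1.65, SE 0.53, limma adjusted p = 0.0277). On the deposited scale Srebf2 did not pass (log2 0.03, SE 0.27, limma adjusted p = 0.95). After rescaling to the same sum Insig1, Insig2 and Mylip were at -1.29, -1.20 and -1.04, and none of the 3 passed. Insig2 also did not pass without Hep-Org replicate 1 or without undamaged replicate 2, and without undamaged replicate 2 Mylip was at -0.72 and did not pass.

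Acat2 was at 25 and 24.4 FPKM in Hep-Org, against 21.9 and 17.4 FPKM in undamaged liver. Hmgcs1 was at 32.9 and 15.4 FPKM in Hep-Org, against 52.1 and 67.9 FPKM in undamaged liver. Fdft1 was at 14 and 12.1 FPKM in Hep-Org, against 41.5 and 61.3 FPKM in undamaged liver. Acat2 was higher in both Hep-Org libraries than in either undamaged library, and the other two were lower. Of the early enzymes Mvk (log2 -1.73, SE 0.43, limma adjusted p = 0.00703), Pmvk (log2 -2.07, SE 0.69, limma adjusted p = 0.0345) and Fdft1 (log2 -1.88, SE 0.47, limma adjusted p = 0.00744) fell, and Acat2, Hmgcs1, Mvd, Idi1, Fdps, Ggps1, Sqle and Lss did not pass. Mvk turned to 0.03 after rescaling to the same sum. Cyp51, Msmo1, Dhcr7 and Scap also fell on the deposited scale, with log2 differences of -1.94, -1.68, -2.17 and -1.07. After rescaling, Msmo1 turned to 0.22 and Scap to 0.74, while Pmvk was at -0.23, Cyp51 at -0.03, Dhcr7 at -0.32 and Fdft1 at -0.0036, and none of these passed. Only Tm7sf2, Ebp, Abcg5 and Abcg8 passed as lower on both scales. The 7 genes higher than undamaged liver after rescaling were among those that did not pass on the deposited scale. Not passing there thus does not show an equal level.

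**Figure D5:**
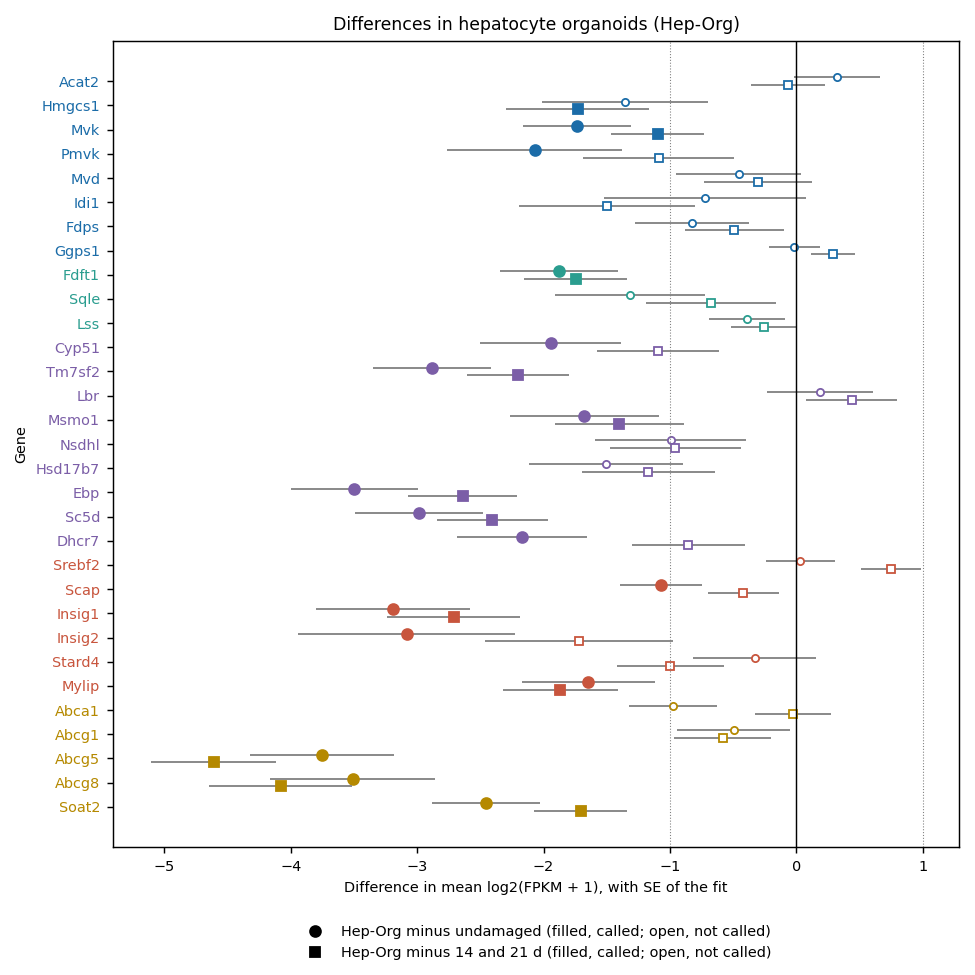
Difference in mean log2(FPKM + 1) in Hep-Org for each gene (rows, coloured by step), with the SE of the fit, against undamaged liver (circles) and against 14 and 21 d (squares); filled marks passed the test. Abcg5 and Abcg8 have the largest negative differences, and no filled mark lies on the right.

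Other genes of the pathway were read from lists. Of 11 genes of SREBP processing and sterol electron supply, 5 fell and 0 rose at 6 h against undamaged liver (median log2 -1.27). Among them were Rnf139, a ubiquitin ligase of the endoplasmic reticulum (log2 -1.51, SE 0.40, limma adjusted p = 0.0212), Erlin1 (log2 -1.53, SE 0.29, limma adjusted p = 0.00428) and Erlin2 (log2 -1.27, SE 0.22, limma adjusted p = 0.00256), which form a complex in the same membrane, and Erg28, a scaffold of the methyl-removing enzymes (log2 -2.50, SE 0.41, limma adjusted p = 0.00204). Erg28 was at 3.4 ± 2.09 FPKM in the 6 h libraries against 24.2 ± 13.2 FPKM in undamaged liver (SD, n = 2 each).

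Of 16 tested genes of sterol transport and LXR, 4 fell and 0 rose at 6 h (median -0.78). Lipa, the lysosomal lipase that frees cholesterol from lipoprotein esters, was at 12.1 ± 0.646 FPKM in the 6 h libraries against 91.8 ± 0.578 FPKM in undamaged liver (SD, n = 2 each) (log2 -2.83, SE 0.32, limma adjusted p = 0.000346), and at 24 h it was above 6 h (log2 2.51, SE 0.32, limma adjusted p = 0.000835). Scarb1, the HDL receptor (log2 -1.70, SE 0.34, limma adjusted p = 0.00572), Lrp1, a remnant receptor (log2 -1.44, SE 0.43, limma adjusted p = 0.0341), and Tmem97, a sterol-binding membrane protein (log2 -2.14, SE 0.46, limma adjusted p = 0.0082), also fell. Of 11 genes of the isoprenoid branches 0 fell and 1 rose (median -0.06), Rabggtb, a subunit of the enzyme that prenylates Rab proteins (log2 1.26, SE 0.36, limma adjusted p = 0.0292). Over all genes tested 7.98% fell and 5.37% rose at 6 h. In Hep-Org against undamaged liver, where 13.8% of all genes fell, 5 of 11, 6 of 16 and 0 of 11 genes of these lists fell and 0 rose (medians -1.02, -0.62 and 0.07). Lcat, which esterifies cholesterol in plasma lipoproteins, was at 24.8 ± 0.477 FPKM in Hep-Org against 476 ± 303 FPKM in undamaged liver (SD, n = 2 each) (log2 -4.05, SE 0.43, limma adjusted p = 1.27e-05). Nr1h3, which encodes the LXR alpha receptor, fell there as well (log2 -1.81, SE 0.32, limma adjusted p = 0.000793).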

How the data were processed

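Total RNA of 20 libraries in 10 groups of 2 was sequenced. The authors deposited 1 table of FPKM values per gene, per the file headers. The header spells the name of undamaged replicate 1 slightly differently from its label, and no other column or sample remained for it. The submitters' processing notes name HISAT2 2.0.5 and the build mm10. Counting tool, annotation, strandedness and scaling were not given in the sources used here, so reads of antisense partners, overlapping genes and copies such as Acat3 cannot be told apart from those of the named genes. FPKM sums ran from 167676 to 988797, so the share of each library in its most abundant genes bears on every level. Gene IDs were matched to GENCODE symbols (54495 of 54532). Low FPKM values were whole multiples of a per-gene step for 97.9% to 98.7% of values (tolerance 0.05 of a read, values up to 20 reads), which gave a depth of 13.7 to 41.4 M reads (M, 1000000) per library. The recovered reads were 0.478 to 1.94 times those that the FPKM scaling implied, the reason was not tested, and rescaling to the same sum was an alternative.

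Genes with at least 1 FPKM in 2 libraries were tested on log2(FPKM + 1) with limma 3.58.1 in R 4.3.3 (1 mean per group, no block, trend and robust options), and p-values were adjusted by Benjamini-Hochberg over 13162 genes. Differences are on this log2 scale, which understates changes of low genes. Calls needed an adjusted p under 0.05 together with a difference of at least 1. The fit had 10 residual degrees of freedom. An F test compared the 8 PHx times. All comparisons with undamaged liver share its 2 libraries. Alternatives changed the pseudocount, filter, scaling, fit options and block, left out each library in turn, or used voom on recovered reads. The last of these, and leaving out 48 h, 72 h and 7 d, were chosen after seeing the data. No 2 libraries held identical values. The members and gene lists were chosen with earlier results of these data known. All 31 members are named. Values per library in liver are given for the 4 members of each step with the largest F (3 in the squalene step) and for Srebf2, Insig1 and Mylip. The members named first for Hep-Org, and the 3 ratios, were chosen after their values were seen.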

Additional observations from a re-analysis of the deposited data

Results flagged for a closer look

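For 12 genes the difference from undamaged liver was not the same at 24 h as at 6 h, by the limma test of 24 h against 6 h on log2(FPKM + 1). The 2 comparisons share the undamaged libraries, which the test itself does not use. The 12 are the same 11 genes that rose and 1 that fell from 6 to 24 h above. In that test 10.1% of all genes passed, 4.86% as higher and 5.21% as lower. Among the mevalonate genes the 24 h minus 6 h difference was 1.83 for Acat2, 3.06 for Hmgcs1, 2.37 for Mvk and 2.84 for Idi1. In the squalene step it was 3.21 for Fdft1 and 2.13 for Sqle. In the late sterol step it was 2.49 for Cyp51, 3.15 for Msmo1 and 2.11 for Sc5d. Among the control genes it was 2.71 for Insig1 and 1.73 for Stard4. Against undamaged liver Hmgcs1 was at -2.99 at 6 h and at 0.08 at 24 h. At 24 h it did not pass (SE 0.66, limma adjusted p = 0.989), and its libraries overlapped with the undamaged ones.

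Abca1 went the other way, with a 24 h minus 6 h difference of -1.83. It was at 0.01 against undamaged liver at 6 h and at -1.83 at 24 h, and both 24 h libraries were below both 6 h libraries.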

How the results depend on the processing

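The median-ratio factors lay between 0.976 and 1.04 in every library, so that scaling could move little. The factors for the same sum ran from 0.338 to 1.995. Counts of called genes among the 31 kept within 1.5 times under the other pseudocount and the median-ratio scaling in every comparison. Exceptions elsewhere were 12 h against undamaged liver, which gave 8 after rescaling to the same sum, 24 h, which gave 1 without the trend and robust options, and 72 h, which gave 0 with no filter, 1 after rescaling, 0 with the replicate block and 3 with voom. These counts add lower and higher calls, which hides a change of direction in Hep-Org. After rescaling, Hep-Org against undamaged liver went from 16 lower and 0 higher to 4 lower and 7 higher. Against 14 and 21 d it went from 12 lower and 0 higher to 7 lower and 5 higher. With 75% as the mark 7 genes had reached it by 24 h. The cause was not tested. Rescaling reversed Mvk in Hep-Org, to 0.0304 against undamaged liver and 0.0252 against 14 and 21 d, and Msmo1 to 0.22 and Scap to 0.74 against undamaged liver.

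With 1 library left out, the counts ran from 12 to 20 for 6 h, 8 to 16 for 12 h, 0 to 0 for 24 h, 0 to 1 for 48 h, 0 to 6 for 72 h, 0 to 0 for 7 d and 0 to 1 for 14 and 21 d against undamaged liver. They ran from 13 to 19 for 6 h against 14 and 21 d, 0 to 0 for 12 h against 6 h, 5 to 13 for 24 h against 6 h, 7 to 18 for Hep-Org against undamaged liver, 8 to 13 for Hep-Org against 14 and 21 d, 13 to 16 over the PHx times and 8 to 17 for genes at 50% by 24 h. The 48 h count was 1 without either 7 d library, and the 14 and 21 d count was 1 without undamaged replicate 1. A fit without 1 library of a pair assumes that the lone library varies like the other groups.

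Replicate 2 of every PHx time came with the second submission, and undamaged and Hep-Org replicate 2 with the first, so the replicate block was a submission term. Over 28 pairs of times the correlation of same-numbered libraries' deviations ran from -0.381 to 0.472, 4 of them above 0.1 (median -0.115). With the replicate block the counts were 17 for 6 h, 11 for 12 h, 12 for 24 h against 6 h, 19 for 6 h against 14 and 21 d, 15 and 11 for Hep-Org against undamaged liver and against 14 and 21 d, and 13 over the PHx times. Of the single-gene calls, 98 passed with the block and 13 did not. Leaving out 48 h, 72 h and 7 d gave 18 for 6 h, 12 for 12 h and 10 for 24 h against 6 h. Depth limits Abcg5, Abcg8 and Mylip in Hep-Org and Fdps in liver.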
